A study of Homo sapiens with 16 samples.

Results

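The genes described here write, copy, read and erase methyl groups on DNA. They are UHRF1 and UHRF2, the methyltransferases DNMT1, DNMT3A and DNMT3B, the oxidases TET1, TET2 and TET3, and the methyl-CpG reader MBD2. The 9 genes were chosen by name out of 63653 listed genes, and all 9 passed the filter on low values that left 12840 genes for testing. Their RNA was measured by sequencing total RNA of cells of HCT116, a cell line long established from a human colon carcinoma. The inhibitor group received BIX 01294 at 0.5 µM for 72 h, a small molecule that inhibits the histone H3 lysine 9 (H3K9) methyltransferase G9a (gene EHMT2). The siRNA group was transfected with 10 nM of a small interfering RNA against G9a and kept for 72 h. The siRNA control group and the inhibitor control group are the other 2 groups, and the labels do not tell what those cells received. The labels name no transgene or gene deletion in any group. Each group had 2 libraries, and each library was sequenced in 2 runs that were averaged, so n = 2 throughout. The submitters mention both biological and technical replicates, but no label says that a group's libraries came from separate cultures. The p-values thus reflect how far these libraries lie apart, a spread that could be technical.

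DNA methylation in mammals sits mostly on the cytosine of CpG pairs. After replication UHRF1 binds the hemimethylated CpG and also recognises methylated H3K9, and it brings in DNMT1, which methylates the new strand. DNMT3A and DNMT3B add methyl groups to unmethylated sites, the TET enzymes oxidise 5-methylcytosine as a step towards its removal, and MBD2 binds methylated CpG as part of the NuRD chromatin remodelling complex. G9a and its partner GLP have been described in complexes with DNMT1 and UHRF1. RNA levels say nothing of protein levels or of the methylation of DNA, neither of which was measured here.

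The values are FPKM (fragments per kilobase of transcript per 1000000 mapped fragments), scaled between libraries, and fold changes are on the log2(scaled FPKM + 1) scale, which understates changes of low genes. A gene is called where limma's adjusted p over all 12840 genes is under 0.05. Depth implied by the deposited confidence intervals was 2023000 to 6937000 fragments per run. EHMT2 stood at 4.68 and 4.54 FPKM in the siRNA libraries against 15.9 and 17.8 FPKM in their controls (log2 -1.67 ± 0.09, SE, limma adjusted p = 0.000268), so the siRNA libraries carry the knockdown their label names. With the inhibitor EHMT2 stood at 19.7 and 18.9 FPKM against 24.7 and 21.0 FPKM in the inhibitor controls, and it was not called (limma adjusted p = 0.083). The epithelial markers EPCAM, KRT8, KRT18, KRT19, CDH1, CLDN4, VIL1 and CDX2 summed to 641 to 768 FPKM per library. The 9 fibroblast markers summed to 1.75 to 3.76 FPKM, with LUM and FAP listed at 0 in all libraries. The 2 inhibitor control libraries stood apart: across genes their r was 0.9925 with each other and 0.9565 to 0.9735 with the remaining libraries, whose own r values ran between 0.9849 and 0.995. The inhibitor values of the 9 genes are therefore also given against the siRNA controls. In such bulk RNA, fewer cells in a given state and less RNA per cell cannot be told apart.

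Stretches of 300 bases around the start of UHRF1, DNMT1 and UHRF2 are shown because UHRF1 and DNMT1 were lower in the inhibitor libraries than in their controls while UHRF2 was higher, and because the E2F factors that drive genes before DNA replication are known for binding near the starts of such genes. The sequences are from RefSeq (build GRCh38.p14), 5′ to 3′ on the gene's strand, with 250 bases before and 50 from the annotated start. Capitals mark matches to TTTNNCGC or GCGNNAAA, a loose form of the E2F motif and its reverse complement. The UHRF1 stretch is the first of 3 annotated starts, at chr19:4909251-4909550 on the plus strand. The DNMT1 stretch lies at chr19:10194904-10195203 on the minus strand, and the UHRF2 stretch at chr9:6412949-6413248 on the plus strand.
UHRF1: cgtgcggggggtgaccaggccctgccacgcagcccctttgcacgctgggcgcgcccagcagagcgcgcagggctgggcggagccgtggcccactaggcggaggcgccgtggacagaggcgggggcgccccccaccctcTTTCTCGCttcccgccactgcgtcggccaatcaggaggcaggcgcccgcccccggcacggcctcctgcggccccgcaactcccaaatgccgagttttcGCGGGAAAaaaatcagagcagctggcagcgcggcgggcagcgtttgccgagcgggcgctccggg
DNMT1: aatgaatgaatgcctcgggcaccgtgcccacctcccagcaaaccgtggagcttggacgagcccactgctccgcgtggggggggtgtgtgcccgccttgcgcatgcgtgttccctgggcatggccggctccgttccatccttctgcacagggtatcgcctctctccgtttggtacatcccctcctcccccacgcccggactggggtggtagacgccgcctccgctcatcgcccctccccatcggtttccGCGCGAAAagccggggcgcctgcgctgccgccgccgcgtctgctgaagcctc
UHRF2: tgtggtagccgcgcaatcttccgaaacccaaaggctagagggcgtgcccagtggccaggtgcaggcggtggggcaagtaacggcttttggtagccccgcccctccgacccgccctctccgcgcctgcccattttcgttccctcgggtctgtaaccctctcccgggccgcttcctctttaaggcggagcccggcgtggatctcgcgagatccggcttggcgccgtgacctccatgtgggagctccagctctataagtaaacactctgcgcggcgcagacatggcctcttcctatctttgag
The UHRF1 stretch held 2 matches, which begin 112 and 14 bases before the start. The DNMT1 stretch held 1 match, which begins 2 bases before the start, and the UHRF2 stretch held none. A second UHRF1 window held 1 match, and no window of DNMT3A, DNMT3B, TET1, TET2, TET3 or MBD2 held any. Across RefSeq, 6.89% of 35116 such windows held a match. Each form of the motif contains a CpG pair, and this share is not matched for the CpG content of the windows. The stretches are rich in CpG, with 36 pairs in UHRF1, 30 in DNMT1 and 26 in UHRF2, against a median of 14 over the first windows of 27305 genes. DNMT3B had 3. A match describes the letters only and is not evidence of binding in these cells.

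Of the 9 genes, 6 were called between the inhibitor libraries and their controls: UHRF1, DNMT1, DNMT3A, TET3 and MBD2 were lower and UHRF2 was higher. Of all genes tested, 36.5% were called in this comparison, 18.7% lower and 17.7% higher. The median log2 fold change of the 9 genes was -0.38, against 0.01 over all genes tested. With the siRNA 1 gene of the 9 was called, UHRF1, which was lower, where 2.13% of all genes were called, 1.32% lower and 0.802% higher. The median of the 9 genes was then -0.04, against -0.01 over all genes. Between the siRNA controls and the inhibitor controls the same 6 genes were called in the same directions, where 38.2% of all genes were called, 19% lower and 19.2% higher. The log2 differences were -0.80 for UHRF1, -0.45 for DNMT1, -0.85 for DNMT3A, -0.43 for TET3, -0.49 for MBD2 and 0.40 for UHRF2, and the calls were lost in 7 of 12 alternatives for TET3, 5 for MBD2, 4 for DNMT1 and 1 for UHRF2. That comparison and the inhibitor comparison share the inhibitor control libraries. Between the inhibitor libraries and the siRNA controls limma called 0 of the 9 genes, where 0.0389% of all genes were called. At an unadjusted p under 0.05 were 0 of the 9 and 1597 of the 12840 genes tested.

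**Figure D1:**
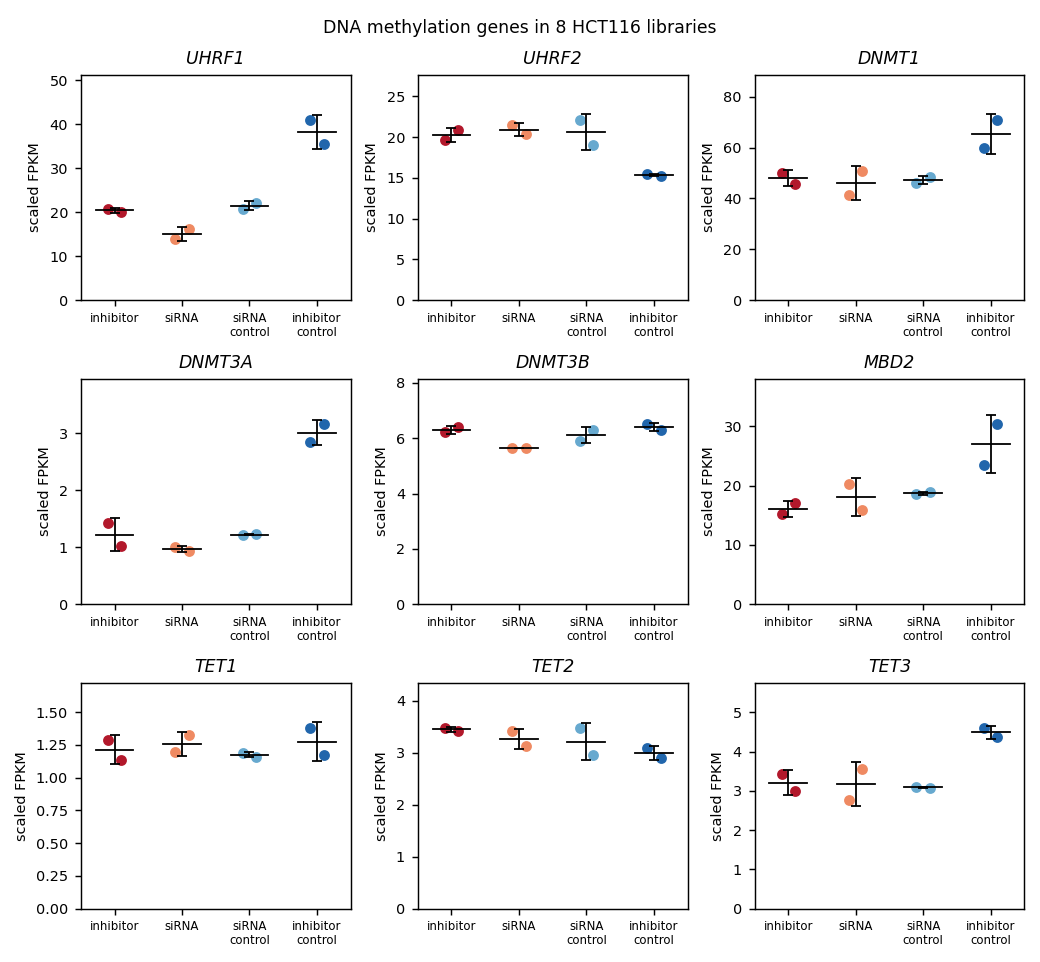
Scaled FPKM (vertical axes, from 0) of each of the 9 genes in the 4 groups, with 1 point per library, the mean as a long line and the SD as a bar (n = 2). The inhibitor control libraries lie above the other 6 for UHRF1, DNMT1, DNMT3A, TET3 and MBD2 and below them for UHRF2, and the siRNA libraries are the lowest of all for UHRF1.

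UHRF1 (chromosome 19, 4903092 to 4962165 in hg19), the protein that couples methylated H3K9 to maintenance of DNA methylation, was lower in the inhibitor libraries than in their controls. It stood at 20.8 and 20.0 FPKM in the inhibitor libraries, 14.0 and 16.2 in the siRNA libraries, 20.8 and 22.2 in the siRNA controls and 41.0 and 35.6 in the inhibitor controls. The inhibitor controls were high, the siRNA libraries were below all 6 others, and the inhibitor libraries were level with the siRNA controls. The inhibitor libraries averaged 20.4 ± 0.572 FPKM and their controls 38.3 ± 3.85 FPKM (SD, n = 2 each), which is -0.87 ± 0.09 on the log2 scale (SE, limma adjusted p = 0.000221). This call held under all 12 alternatives tried, with log2 values from -0.97 to -0.77. Set against the siRNA controls, the same inhibitor libraries were apart by a log2 of -0.07 ± 0.09 (limma adjusted p = 0.796).

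With the siRNA UHRF1 averaged 15.1 ± 1.6 FPKM, against 21.5 ± 0.96 FPKM in the siRNA controls, 70.3% of the control level (log2 -0.48 ± 0.09, limma adjusted p = 0.0413). Both siRNA libraries lay below both controls. This is the treatment comparison that does not involve the inhibitor controls, and 2.08% of all genes tested had a lower log2 fold change in it. The call sits close to the threshold: it was lost in 9 of the 12 alternatives, with adjusted p between 0.0412 and 0.243, while the log2 value stayed between -0.59 and -0.38. Leaving out any 1 of the 4 libraries ended it, with adjusted p of 0.160 and 0.0586 without siRNA replicates 1 and 2, and 0.0514 and 0.243 without siRNA control replicates 1 and 2. Within the first run alone the log2 value was -0.41 and within the second run -0.54, and neither was called (limma adjusted p = 0.146 and 0.0667). The difference between the inhibitor effect and the siRNA effect on UHRF1 was -0.39 ± 0.13 and was not called (limma adjusted p = 0.0838).

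**Figure D2:**
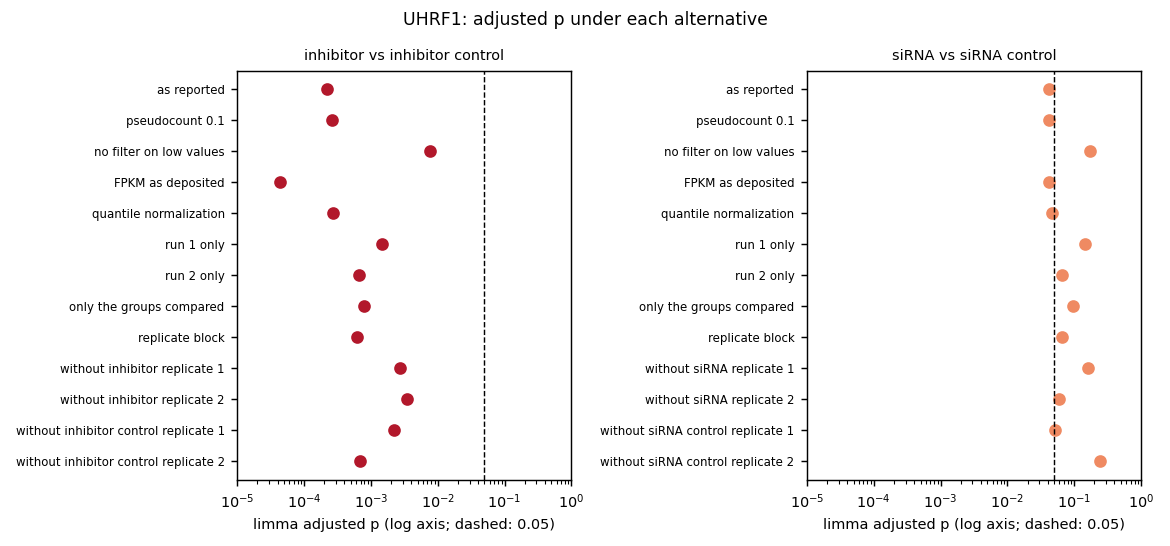
limma adjusted p for UHRF1 (horizontal log axis, dashed line at 0.05) as reported and under each of 12 alternatives, for the inhibitor comparison (left) and the siRNA comparison (right). All points of the inhibitor comparison lie left of the line, at 0.00765 or lower, while 9 of the 12 alternatives of the siRNA comparison lie right of it.

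UHRF2 (chromosome 9, 6413151 to 6507054), the paralogue of UHRF1 that binds 5-hydroxymethylcytosine and does not replace UHRF1 in maintenance, went the other way in the inhibitor comparison. It stood at 19.7 and 20.9 FPKM in the inhibitor libraries, 21.5 and 20.3 in the siRNA libraries, 22.2 and 19.1 in the siRNA controls and 15.5 and 15.3 in the inhibitor controls. Only the inhibitor controls were set apart, below the other 6 libraries. The inhibitor libraries averaged 20.3 ± 0.825 FPKM and their controls 15.4 ± 0.114 FPKM, which is 0.38 ± 0.08 on the log2 scale (SE, limma adjusted p = 0.00651). The call was lost on the FPKM as deposited (adjusted p = 0.0506) and without inhibitor replicate 2 (0.0556), over a range of 0.00436 to 0.0556 in all alternatives. Against the siRNA controls the difference was -0.02 ± 0.08, and with the siRNA it was 0.02 ± 0.08, neither called by limma (adjusted p = 0.941 and 0.905).

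The ratio of UHRF1 to UHRF2 within a library sets 2 levels of 1 RNA sample against each other and needs no scaling between libraries. It was 1.06 and 0.959 in the inhibitor libraries, 0.650 and 0.799 in the siRNA libraries, 0.939 and 1.16 in the siRNA controls, and 2.65 and 2.33 in the inhibitor controls. UHRF1 was thus more than 2 times UHRF2 only in the inhibitor controls, and it was the less abundant RNA in both siRNA libraries, as in inhibitor replicate 2 and siRNA control replicate 1. The siRNA libraries did not overlap the siRNA controls in this ratio. With 2 libraries a group, an exact permutation test cannot reach p = 0.05, and none is given.

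**Figure D3:**
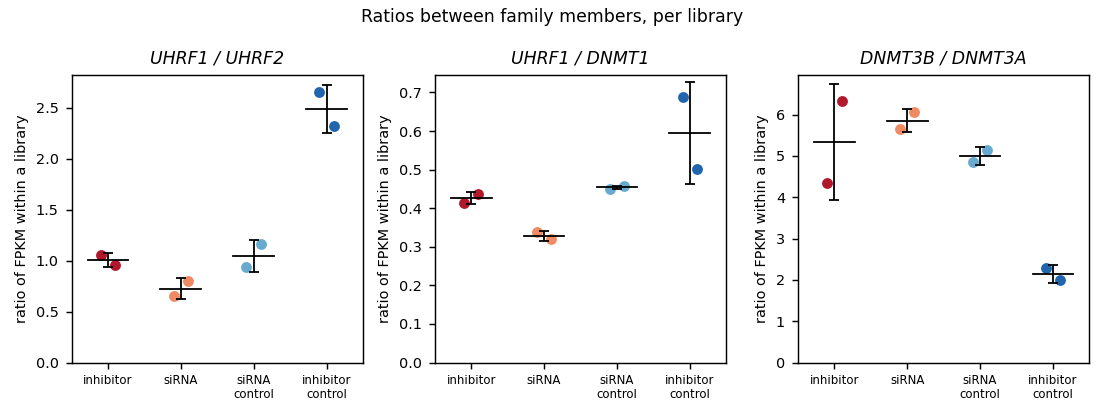
Ratios of scaled FPKM within each library (vertical axes, from 0, no unit) for UHRF1 to UHRF2, UHRF1 to DNMT1 and DNMT3B to DNMT3A, with 1 point per library, the mean as a long line and the SD as a bar (n = 2). The inhibitor controls have the highest UHRF1 to UHRF2 ratios, 2.65 and 2.33, and the lowest DNMT3B to DNMT3A ratios, 2.29 and 1.99.

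DNMT1 (chromosome 19, 10244021 to 10341962), the maintenance methyltransferase, had the highest level of the 9 genes, and its lowest library exceeded the highest library of UHRF1. It stood at 50.2 and 45.8 FPKM in the inhibitor libraries, 41.3 and 50.8 in the siRNA libraries, 46.1 and 48.5 in the siRNA controls and 59.7 and 71.0 in the inhibitor controls. The inhibitor controls were above the other 6 libraries, which overlapped one another. The inhibitor libraries averaged 48.0 ± 3.11 FPKM and their controls 65.3 ± 8.02 FPKM (log2 -0.43 ± 0.11, SE, limma adjusted p = 0.013). The call was lost without inhibitor replicate 2 (adjusted p = 0.091), without inhibitor control replicate 2 (0.0842) and with no filter on low values (0.105), over a range of 0.007 to 0.105 in all alternatives. With the siRNA the log2 fold change was -0.04 ± 0.11, and between the inhibitor libraries and the siRNA controls it was 0.02 ± 0.11 (limma adjusted p = 0.856 and 0.96).

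The level of UHRF1 was also set against that of its partner DNMT1 within each library. The UHRF1 to DNMT1 ratio was 0.338 and 0.320 in the siRNA libraries against 0.451 and 0.457 in the siRNA controls, without overlap. It was 0.415 and 0.437 in the inhibitor libraries against 0.687 and 0.501 in the inhibitor controls. The locus of DNMT1 contains S1PR2, a sphingosine-1-phosphate receptor gene, at 1.22 to 1.90 FPKM, and the unnamed transcript CTD-2369P2.2 at 1.60 to 2.93 FPKM. No source used here gives the strand setting of the counting, so a small share of reads could belong to either gene.

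DNMT3A (chromosome 2, 25455845 to 25565459), which methylates new sites and is known for its mutations in blood cancers, was expressed at a low level. It stood at 1.43 and 1.01 FPKM in the inhibitor libraries, 0.9997 and 0.931 in the siRNA libraries, 1.22 and 1.22 in the siRNA controls and 2.85 and 3.16 in the inhibitor controls. The inhibitor controls were high and the other 6 libraries lay near 1 FPKM. The inhibitor libraries averaged 1.22 ± 0.295 FPKM, 40.7% of the 3.01 ± 0.221 FPKM in their controls (log2 -0.86 ± 0.14, SE, limma adjusted p = 0.00175). This call held under all 12 alternatives, with adjusted p of 0.0319 or lower. The log2 value of the inhibitor libraries set against the siRNA controls was -0.01 ± 0.14 (limma adjusted p = 0.99). Both siRNA libraries lay below both siRNA controls, but the log2 fold change of -0.18 ± 0.14 was not called (limma adjusted p = 0.506). Cufflinks gave a median half-width of 80.1% to the intervals of single DNMT3A runs, against 7.65% for UHRF1, so its level in any 1 library is imprecise.

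DNMT3B (chromosome 20, 31350191 to 31397162), the other enzyme for new sites and one that HCT116 is known to use, varied least of the 3 methyltransferases across the libraries. It stood at 6.21 and 6.41 FPKM in the inhibitor libraries, 5.65 and 5.64 in the siRNA libraries, 5.92 and 6.31 in the siRNA controls and 6.52 and 6.31 in the inhibitor controls. The 8 libraries lay close together, with the siRNA libraries lowest. The log2 fold change was -0.02 ± 0.09 with the inhibitor and -0.10 ± 0.09 with the siRNA, neither called by limma (adjusted p = 0.878 and 0.562). For the inhibitor against the siRNA controls it was 0.04 ± 0.09 (adjusted p = 0.884). The DNMT3B to DNMT3A ratio was 4.34 and 6.32 in the inhibitor libraries, 5.65 and 6.06 in the siRNA libraries, 4.85 and 5.15 in the siRNA controls and 2.29 and 1.99 in the inhibitor controls. DNMT1 made up 86.1% to 88.6% of the summed FPKM of the 3 methyltransferases in every library. The sum averaged 55.5 ± 3.26 FPKM in the inhibitor libraries, 52.7 ± 6.66 in the siRNA libraries, 54.7 ± 1.96 in the siRNA controls and 74.8 ± 8.09 in the inhibitor controls.

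**Figure D4:**
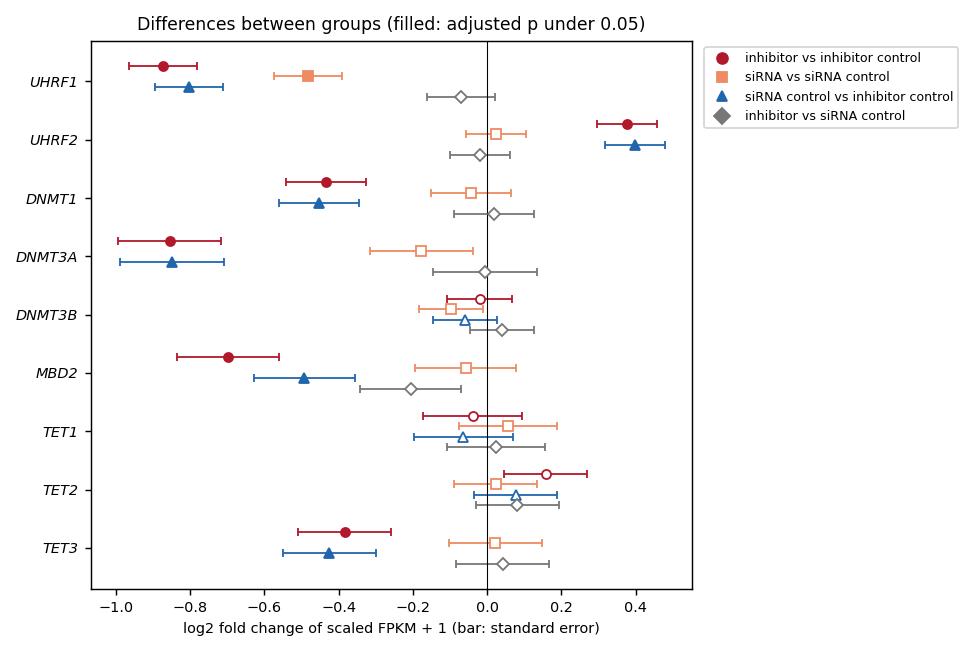
Log2 fold change of scaled FPKM + 1 (horizontal axis) with its standard error for each of the 9 genes in 4 comparisons, filled where the limma adjusted p is under 0.05. Circles and triangles, which both use the inhibitor controls, lie on the same side of 0 for every gene, UHRF1 is the only filled square, and all diamonds, the inhibitor libraries against the siRNA controls, are open.

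The TET enzymes were expressed at low levels, and TET3 alone was called in any comparison. TET1 (chromosome 10, 70320413 to 70454239), whose CXXC domain binds CpG-rich DNA, stood at 1.29 and 1.14 FPKM in the inhibitor libraries, 1.20 and 1.32 in the siRNA libraries, 1.19 and 1.16 in the siRNA controls and 1.38 and 1.17 in the inhibitor controls. TET2 (chromosome 4, 106067032 to 106200973), which lacks that domain and is often mutated in blood cancers, stood at 3.47 and 3.42 FPKM in the inhibitor libraries, 3.41 and 3.14 in the siRNA libraries, 3.47 and 2.96 in the siRNA controls and 3.08 and 2.89 in the inhibitor controls. Both inhibitor libraries lay above both of their controls for TET2, but neither gene was called, with log2 fold changes of -0.04 ± 0.13 for TET1 and 0.16 ± 0.11 for TET2 with the inhibitor, and 0.06 ± 0.13 and 0.02 ± 0.11 with the siRNA. Between the inhibitor libraries and the siRNA controls the log2 values were 0.02 ± 0.13 for TET1 and 0.08 ± 0.11 for TET2, not called either (limma adjusted p = 0.957 and 0.812). TET3 (chromosome 2, 74229840 to 74335303), the oxidase of the fertilised egg in mice, stood at 3.44 and 2.98 FPKM in the inhibitor libraries, 2.77 and 3.57 in the siRNA libraries, 3.10 and 3.08 in the siRNA controls and 4.60 and 4.38 in the inhibitor controls.

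For TET3 the inhibitor controls were again above the other 6 libraries. The inhibitor libraries averaged 3.21 ± 0.321 FPKM and their controls 4.49 ± 0.159 FPKM (log2 -0.38 ± 0.12, SE, limma adjusted p = 0.039), while the log2 value against the siRNA controls was 0.04 ± 0.12 (adjusted p = 0.919). This was the least secure of the 6 calls, lost in 9 of 12 alternatives with adjusted p between 0.0334 and 0.210, among them each of the 4 fits that left out a library (0.0691 to 0.210). TET3 exceeded TET2 by a ratio of 1.49 and 1.51 in the inhibitor controls, while the ratio was 0.990 and 0.873 in the inhibitor libraries. The summed FPKM of the 3 oxidases averaged 7.87 ± 0.469 in the inhibitor libraries, 7.70 ± 0.463 in the siRNA libraries, 7.47 ± 0.396 in the siRNA controls and 8.75 ± 0.441 in the inhibitor controls.

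MBD2 (chromosome 18, 51679079 to 51751158), the methyl-CpG reader of NuRD, stood at 15.1 and 17.1 FPKM in the inhibitor libraries, 20.3 and 15.8 in the siRNA libraries, 18.5 and 18.9 in the siRNA controls and 23.5 and 30.4 in the inhibitor controls. The inhibitor controls were the 2 highest libraries, and the inhibitor libraries lay below both siRNA controls too. The inhibitor libraries averaged 16.1 ± 1.36 FPKM and their controls 26.9 ± 4.89 FPKM (log2 -0.70 ± 0.14, SE, limma adjusted p = 0.00419). Against the siRNA controls the log2 difference was -0.21 ± 0.14, and with the siRNA it was -0.06 ± 0.14, neither called by limma (adjusted p = 0.556 and 0.85). The inhibitor value depended on the sequencing run: it was -0.34 in the first run (adjusted p = 0.215) and -1.005 in the second, over a range of adjusted p of 0.00229 to 0.215 in all alternatives. SNORA37, a small nucleolar RNA inside an intron of MBD2, was listed at 9.46 to 164 FPKM, and its part in the MBD2 value was not tested.

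By mean level over the 8 libraries the order was DNMT1 at 51.7 FPKM, UHRF1 at 23.8, MBD2 at 19.9, UHRF2 at 19.3, DNMT3B at 6.12, TET3 at 3.49, TET2 at 3.23, DNMT3A at 1.60 and TET1 at 1.23 FPKM. FPKM is per length of transcript, so these levels can be set side by side. The libraries of UHRF1, MBD2 and UHRF2 overlapped one another, and those of TET3, TET2 and DNMT3A did, as did those of DNMT3A and TET1. In the inhibitor controls DNMT3A stood at 2.85 and 3.16 FPKM and TET2 at 3.08 and 2.89 FPKM. The order of this pair was thus turned in inhibitor control replicate 2 and not in replicate 1. DNMT1 lay above UHRF1, UHRF2 above DNMT3B and DNMT3B above TET3 in all libraries. Relative to all tested genes, DNMT1 had a higher level than 90.2%, UHRF1 than 77.5% and TET1 than 4.6%.

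Among the 5 genes of the 9 that were lower in the inhibitor libraries than in their controls, none was called in the direct test of the inhibitor effect minus the siRNA effect. In that test limma called 0 of the 9 genes, where 11.8% of all genes were called. At an unadjusted p under 0.05 were 6 of the 9 and 3613 of the 12840 genes tested. The differences closest to the threshold were those of DNMT3A (log2 -0.68 ± 0.20, limma adjusted p = 0.0569) and MBD2 (-0.64 ± 0.19, adjusted p = 0.0626). No gene of the 9 is thereby shown to respond differently to the inhibitor and to the siRNA.

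The partners of maintenance methylation include PCNA, the clamp that holds DNMT1 at the replication fork, USP7, a deubiquitinase of UHRF1 and DNMT1, and KIAA0101 (PCLAF, also PAF15), a PCNA-bound protein that UHRF1 ubiquitinates to recruit DNMT1. Of 13 such genes 11 were tested, and DNMT3L and ZFP57 did not pass the filter on low values. With the inhibitor 2 were higher (PCNA, KIAA0101) and 4 lower (USP7, DMAP1, HDAC2, TRIM28), with a median log2 of -0.13, where 17.7% of all genes tested were called higher and 18.7% lower. USP7 averaged 25.9 ± 2.91 FPKM with the inhibitor and 46.4 ± 6.22 FPKM in its controls (log2 -0.81 ± 0.11, limma adjusted p = 0.000858). DMAP1, a DNMT1-associated protein, fell by 1.09 on the log2 scale, HDAC2, a histone deacetylase, by 0.64, and TRIM28, the KAP1 co-repressor, by 0.37. Against the siRNA controls these 4 differed by -0.12, -0.06, 0.14 and -0.02, none called.

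KIAA0101 was the exception to the pattern. It stood at 70.8 and 73.9 FPKM in the inhibitor libraries, 69.1 and 61.3 in the siRNA libraries, 44.0 and 39.6 in the siRNA controls and 59.3 and 59.3 in the inhibitor controls. Both treated groups were above both control groups, and here the siRNA controls were the low libraries. The log2 fold change was 0.63 ± 0.07 with the siRNA (SE, limma adjusted p = 0.00907) and 0.28 ± 0.07 with the inhibitor (adjusted p = 0.0147). The inhibitor libraries also exceeded the siRNA controls, by 0.78 ± 0.07 (limma adjusted p = 0.00956), 1 of only 5 genes called in that comparison. The siRNA comparison and that one share the siRNA control libraries. With no filter on low values 0 genes were called between the inhibitor libraries and the siRNA controls, so that call was lost. The other alternatives were not examined for that value or for the inhibitor value of KIAA0101. The siRNA call was lost in 4 of 12 alternatives, with adjusted p between 0.00644 and 0.106, among them those without siRNA replicate 1 (0.0529) and without siRNA control replicate 2 (0.0796). KIAA0101 lies within the locus of the transcript CTD-2116N17.1, listed at 1.68 to 3.05 FPKM.

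No other reader described here was called with either treatment. Of the 6 described here, MBD1, MBD3, MBD4, ZBTB33, ZBTB38 and ZBTB4, limma called 0 in either comparison. Of all genes, 36.5% were called with the inhibitor and only 2.13% with the siRNA. An unadjusted p under 0.05 was reached by 0 of the 6 in either. It was reached by 5901 of the 12840 genes tested with the inhibitor and 2670 with the siRNA. The inhibitor libraries and their controls averaged 12.8 ± 0.197 and 11.1 ± 0.518 FPKM for MBD4, the glycosylase of the 6 readers (log2 0.18 ± 0.08). For MBD3 they averaged 21.8 ± 0.738 and 20.5 ± 1.56 FPKM (log2 0.08 ± 0.09). ZBTB4 and ZBTB38, zinc finger readers, had log2 values of -0.27 ± 0.13 and -0.12 ± 0.08 with the inhibitor, and 0.20 and 0.17 with the siRNA. The median was 0.04 with the inhibitor. Between the siRNA controls and the inhibitor controls ZBTB38 (log2 -0.29) and ZBTB4 (-0.44) were called lower (limma adjusted p = 0.0228 for each). Of all genes, 19% were called lower there. Between the inhibitor libraries and the siRNA controls limma called 0 of the 6, where 0.0389% of all genes were called. An unadjusted p under 0.05 was reached there by 1 of the 6 and by 1597 of the 12840 genes.

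MBD2 acts within NuRD, and 7 of 13 NuRD genes were called with the inhibitor, 6 lower and 1 higher, against 36.5% called among all genes tested, and the median log2 was -0.23. CHD3, a remodelling ATPase, averaged 9.37 ± 0.251 FPKM against 17.7 ± 1.02 FPKM in the inhibitor controls (log2 -0.85 ± 0.10, limma adjusted p = 0.000331). RBBP4, a histone-binding subunit, fell by 0.39 and GATAD2A, which binds MBD2 directly, by 0.81 on the log2 scale. CDK2AP1, a small subunit, was higher by 0.31 but lost its call on the FPKM as deposited (adjusted p = 0.0653). With the siRNA GATAD2A was the single call of the list. It stood at 14.3 and 19.3 FPKM in the siRNA libraries against 26.7 and 26.4 FPKM in their controls (log2 -0.64 ± 0.13, limma adjusted p = 0.044), and lost the call in 9 of 12 alternatives (adjusted p between 0.0233 and 0.242). Set against the siRNA controls, the inhibitor libraries gave 0 calls in NuRD, where 0.0389% of all genes were called, and a median of 0.09. At an unadjusted p under 0.05 were 0 of the 13 and 1597 of the 12840 genes tested.

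Removal of 5-methylcytosine needs base excision repair after TET oxidation, and cofactors such as the 2-oxoglutarate that IDH1 makes. Of 18 tested genes of this list 4 were called higher (TDG, SMUG1, POLB, IDH1) and 5 lower (APEX1, PARP1, NEIL2, GADD45A, APOBEC3B) with the inhibitor, beside shares of 17.7% and 18.7% over all genes, and the median log2 was 0.15. APOBEC3B passed the filter on low values, a mean of at least 1 FPKM over the 8 libraries, only through the inhibitor controls, at 4.58 and 1.34 FPKM there and 0.314 to 0.764 FPKM in the other 6 libraries, so its call is a description only. APEX1, the abasic site nuclease, stood at 20.3 and 24.5 FPKM in the inhibitor libraries against 133 and 83.6 FPKM in their controls (log2 -2.19 ± 0.23, SE, limma adjusted p = 0.000248). The siRNA libraries, at 13.9 and 20.7 FPKM, and the siRNA controls, at 24.5 and 31.9, all lay below both inhibitor controls. PARP1, the strand break sensor, was lower by 0.78, NEIL2, a DNA glycosylase, by 0.75, and the glycosylase SMUG1 was higher by 0.36 on the log2 scale. Between the inhibitor libraries and the siRNA controls limma called 0 of the 18, where 0.0389% of all genes were called. An unadjusted p under 0.05 was reached there by 1 of the 18 and by 1597 of the 12840 genes tested. The log2 differences there were -0.31 for APEX1, 0.08 for PARP1, -0.16 for NEIL2, 0.13 for SMUG1 and 0.11 for IDH1. IDH1 was called with both treatments, at 43.5 ± 1.85 FPKM with the inhibitor against 32.9 ± 0.596 in its controls (log2 0.39 ± 0.06, limma adjusted p = 0.00107). With the siRNA it was at 50.6 ± 0.307 against 40.4 ± 1.64 FPKM (log2 0.32 ± 0.06, adjusted p = 0.0365), a call lost in 9 of 12 alternatives (adjusted p between 0.0307 and 0.292).

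The methyltransferases draw on S-adenosylmethionine. Of 13 tested genes of its supply 6 were lower (MAT2A, AHCY, AHCYL1, SHMT2, MTHFD1, TYMS) and 1 was higher (MTHFD2) with the inhibitor, with a median log2 of -0.13. The share of all genes tested was 18.7% lower and 17.7% higher. MAT2A, which makes S-adenosylmethionine, averaged 21.9 ± 0.947 FPKM with the inhibitor against 60.2 ± 3.55 FPKM in its controls (log2 -1.42 ± 0.09, limma adjusted p = 2.22e-05). It averaged 22.1 ± 2.74 FPKM in the siRNA controls. The folate enzyme MTHFD1 fell by 1.11, AHCYL1, a relative of the enzyme that clears S-adenosylhomocysteine, by 0.95 and the serine enzyme SHMT2 by 0.22 on the log2 scale. MTHFD2, the mitochondrial folate enzyme, was higher by 0.37. With the siRNA limma called 0 of the 13, where 2.13% of all genes were called. At an unadjusted p under 0.05 were 3 of the 13 and 2670 of the 12840 genes tested. Between the inhibitor libraries and the siRNA controls limma called 0 of the 13, where 0.0389% of all genes were called. An unadjusted p under 0.05 was reached there by 2 of the 13 and by 1597 of the 12840 genes tested. The log2 differences there were -0.01 for MAT2A, -0.28 for MTHFD1, -0.05 for AHCYL1, -0.02 for SHMT2 and -0.14 for MTHFD2.

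UHRF1 and DNMT1 are known for expression that rises towards S phase, so genes of that phase were set beside them. Of 21 tested 6 were higher (PCNA, RRM1, CCNE1, CCNE2, GINS2, SLBP) and 4 lower (MCM6, TYMS, RRM2, CDT1) with the inhibitor, next to 17.7% higher and 18.7% lower over all genes tested, and the median log2 was 0.02. RRM2, a subunit of ribonucleotide reductase, was lower by 1.098 and MCM6, of the replicative helicase, by 1.08. Cyclin gene CCNE2 was higher by 0.55 and SLBP, which binds histone messenger RNA, by 0.44. Against the siRNA controls the same inhibitor libraries differed by -0.001 for RRM2, -0.01 for MCM6, 0.02 for CCNE2 and 0.03 for SLBP. There limma called 0 of the 21, where 0.0389% of all genes were called. An unadjusted p under 0.05 was reached there by 5 of the 21 and by 1597 of the 12840 genes tested. Those 5 do not include RRM2, MCM6, CCNE2 or SLBP. With the siRNA RRM2 was the single call, at 42.3 ± 0.303 against 55.9 ± 4.34 FPKM (log2 -0.39 ± 0.06, limma adjusted p = 0.0267), lost in 8 of 12 alternatives with adjusted p between 0.0168 and 0.163. The median log2 of the list with the siRNA was 0.0029. The part of the cell cycle in the UHRF1 value was not tested.

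**Figure D5:**
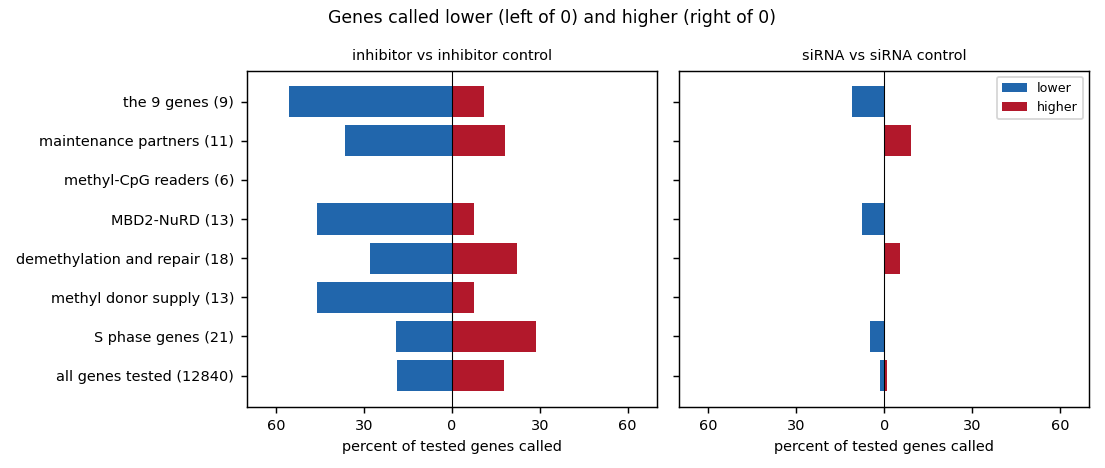
Percent of tested genes called lower (left of 0) and higher (right of 0) in the inhibitor comparison (left panel) and the siRNA comparison (right panel), for the 9 genes, 6 lists around them and all 12840 genes tested, with the number tested in brackets. All genes split into 18.7% lower and 17.7% higher with the inhibitor, and the methyl-CpG readers have no call in either panel. Some lists share genes, so the bars are not independent.

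Genes described elsewhere as silenced by promoter DNA methylation were at or near 0, with 1 exception. Of 18 such genes, among them SFRP1, GATA4, TIMP3, DAZL and MAGEA1, 17 did not pass the filter on low values. Those 17 together summed to 0.511 and 0.510 FPKM in the inhibitor libraries, 0.792 and 0.610 in the siRNA libraries, 0.701 and 0.471 in the siRNA controls and 0.568 and 0.183 in the inhibitor controls. Each treatment overlapped its own controls, so at this depth neither set the sum apart from them. Both siRNA libraries lay above both inhibitor libraries and both inhibitor controls. SYCP3, at 0.108 to 0.509 FPKM, had the highest mean of the 17, and the sum was not tested. CDKN2A, the one that passed, averaged 29.5 ± 1.33 FPKM with the inhibitor against 24.0 ± 2.66 FPKM in its controls (log2 0.29 ± 0.09, limma adjusted p = 0.0275), a call lost in 7 of 12 alternatives (adjusted p between 0.0147 and 0.179). With the siRNA it was at 25.8 ± 2.1 against 30.8 ± 0.362 FPKM (log2 -0.25 ± 0.09, adjusted p = 0.15).

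Of 7 epithelial markers tested, KRT19 was called higher (log2 0.21) and KRT8, EPCAM and CDH1 lower (log2 -0.41, -0.20 and -0.60) in the inhibitor comparison. Of all genes tested, 17.7% were called higher there and 18.7% lower. The calls of EPCAM and KRT19 were lost in 7 and 2 of 12 alternatives, and that of CDH1 in 4 of 11. CDH1 passed the filter only through the inhibitor controls, at 1.14 and 2.01 FPKM there and 0.623 to 1.06 FPKM in the other 6 libraries, and its call too is a description only. The summed level of the list averaged 709 ± 13.1 FPKM in the inhibitor libraries against 764 ± 5.22 FPKM in the inhibitor controls, and 650 ± 10.8 in the siRNA libraries against 642 ± 0.848 in the siRNA controls. With the siRNA limma called 0 of the 7, where 2.13% of all genes were called. At an unadjusted p under 0.05 were 3 of the 7 and 2670 of the 12840 genes tested. CLDN4, a tight junction gene, stood at a log2 of 0.33 with the siRNA. Between the inhibitor libraries and the siRNA controls limma called 0 of the 7, where 0.0389% of all genes were called. An unadjusted p under 0.05 was reached there by 3 of the 7 and by 1597 of the 12840 genes. COL1A1, the 1 fibroblast marker that passed the filter, was uncalled with both treatments (log2 -0.43 and 0.13). The part of these shifts in the values of the 9 genes was not tested.

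By profile over the 8 libraries, the genes most like UHRF1 were NCAPD2, a condensin subunit, with a root-mean-square log2 difference of 0.0379, REXO4 with 0.0622 and TMEM11 with 0.0653. NCAPD2 stood at 38.2 and 36.8 FPKM in the inhibitor libraries, 26.3 and 31.6 in the siRNA libraries, 39.5 and 41.6 in the siRNA controls and 71.9 and 63.3 in the inhibitor controls. It was picked by this profile, so the high inhibitor controls and low siRNA libraries that it has in common with UHRF1 are a description only. Those most like DNMT1 were NCK1, a signalling adaptor (0.0344), DHX38, a splicing helicase (0.0558), and RASSF8 (0.0559). NCK1 stood at 16.2 and 15.3 FPKM in the inhibitor libraries, 13.7 and 16.6 in the siRNA libraries, 15.1 and 16.1 in the siRNA controls and 19.1 and 22.3 in the inhibitor controls.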

How the data were processed

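RNA of 16 runs (8 libraries, 4 groups of 2) was analysed. The deposited values are gene-level FPKM that the authors made with Cufflinks (per the file headers). The submitters' processing notes also name STAR 2.3.0e, SAMtools 0.1.19 and build hg19. Libraries came from a stranded total RNA kit, per the labels' protocols. No source used here gives the Cufflinks version, annotation or strand setting.

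The files hold 63784 entries for 63653 genes and no counts. Repeated identifiers were summed, 8 genes that Cufflinks marked as not reliably estimated were left out, and each library's 2 runs were averaged. Scaling used median-of-ratios factors of 0.8784 to 1.092. Genes averaging at least 1 FPKM, with loci of 300 bases or more, were tested on log2(scaled FPKM + 1). The test was the moderated one of limma 3.58.1 (R 4.3.3), two-sided, with a mean-variance trend and all 4 groups in 1 fit. It had 4 residual and 5.04 prior degrees of freedom and a Benjamini-Hochberg threshold of 0.05. The fit was also run on simulated data, which held neither the scaling step nor a control group set apart. Because FPKM is relative to a run's total, abundant RNAs can move the values of the rest.

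The 9 genes and the lists were chosen with earlier results of these data known. Besides the 9 genes, EHMT2 and EHMT1, the text names from each list the 4 genes with the smallest p in the inhibitor comparison and the 2 with the smallest in the siRNA comparison, and the 3 genes most like UHRF1 and DNMT1 among those with a mean of at least 5 FPKM. Genes listed as called are named whatever the rule. Some lists share genes, so their counts are not independent. HDAC2 is in the maintenance partners and in NuRD, and TYMS is in methyl donor supply and in the S phase genes. Alternatives were another pseudocount (0.1), no filter on low values, FPKM as deposited, quantile normalization, each run alone, only the groups compared, the replicate number as a block, and each library left out.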

Additional observations from a re-analysis of the deposited data

Results flagged for a closer look

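For 20 of the genes named as called in the inhibitor or the siRNA comparison, the inhibitor effect and the siRNA effect differed in a direct test (limma, the inhibitor log2 fold change minus the siRNA one, adjusted over all genes tested). None of them is one of the 9 genes. Of all genes tested, 11.8% were called in that test. The 20 were drawn from genes already called in 1 or both of the effects that the test compares, so their number is a description only. EHMT2 stood at 1.44, where the siRNA libraries had the lower level. The inhibitor effect was the lower one for APEX1 (-1.51), MAT2A (-1.22), MCM6 (-1.20), MTHFD1 (-1.16), AHCYL1 (-0.82), RRM2 (-0.71), TYMS (-0.70), HDAC2 (-0.67), PARP1 (-0.59), RBBP4 (-0.34), TRIM28 (-0.32), KRT8 (-0.29) and AHCY (-0.26). It was the higher one for CCNE2 (0.80), MTHFD2 (0.58), CDKN2A (0.54), TDG (0.53), SLBP (0.43) and CDK2AP1 (0.27). The inhibitor side of each difference rests on the inhibitor controls, which stand apart from the other 6 libraries, and the part of those libraries in the differences cannot be told apart from the treatment.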

How the results depend on the processing

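Alternatives were examined for 95 log2 values, 44 of them called. Of these 44, 26 kept their call under all alternatives run, among them UHRF1 and DNMT3A with the inhibitor. Other calls named in the text were not examined singly, such as KIAA0101, SMUG1 and SHMT2 with the inhibitor. The count of the 9 genes called with the inhibitor was 6 as reported, 3 with no filter on low values, and 3 to 5 with 1 library left out. With the siRNA it was 1 as reported and 0 with no filter, in the first run alone, in the second run alone, with only the groups compared and with each library left out (0 to 0). Between the siRNA controls and the inhibitor controls it was 6, 3 with no filter, 3 in the first run alone, and 3 to 5 with 1 library left out. For the difference between the treatment effects it was 0, 2 in the second run alone, and 0 to 2 with 1 library left out. With the replicate number as a block it was 0 with the siRNA, where UHRF1 was lost (limma adjusted p = 0.0666), and TET3 was lost with the inhibitor (0.0571). Same-numbered libraries deviated together by r = -0.0978 to 0.0482 only, and no label pairs them.

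Over all genes, the inhibitor comparison called 4682 genes as reported, 2981 with no filter, 3111 on the FPKM as deposited, 3108 in the first run alone, and 2669 without inhibitor replicate 2. The siRNA comparison called 273, and 5, 134 and 31 under the first 3 of these, 45 in the second run alone, 24 with only the groups compared, 68 under the block, and 9 to 421 with 1 library left out. The siRNA controls against the inhibitor controls gave 4909, 3224 with no filter and 3209 in the first run alone. The inhibitor libraries against the siRNA controls gave 5, 0 with no filter, 32 as deposited, 1 and 2 in the single runs, and 0 to 43 with 1 library left out. The difference between the effects gave 1517, 245 with no filter, 737 as deposited, 524 and 719 in the single runs, and 488 to 1480 with 1 library left out. Scaling moved the split of calls: 1082 of 3111 were higher with the inhibitor and 20 of 134 with the siRNA on the FPKM as deposited, which shifted the median gene by -0.11 between the controls. Of the calls between the controls 648 of 3598 were then higher. With quantile normalization 2728 of 4799 were higher with the inhibitor and 135 of 274 with the siRNA.

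The sign changed for 21 of the 95 log2 values examined, none of them called. On the FPKM as deposited, the inhibitor against the siRNA controls gave DNMT3A 0.059, UHRF1 0.045 and UHRF2 0.096, the siRNA gave UHRF2 -0.032, TET2 -0.021 and TET3 -0.023, and the siRNA controls against the inhibitor controls gave TET2 -0.026. Quantile normalization gave DNMT3B 0.073 with the inhibitor and 0.023 between the controls. The first run alone gave DNMT1 -0.065, DNMT3A 0.014, UHRF1 0.031 and TET1 -0.020 for the inhibitor against the siRNA controls, and TET2 -0.0047 with the siRNA. The second run alone gave DNMT1 0.10 and TET3 -0.014 with the siRNA, TET1 0.0042 and ZBTB38 0.012 with the inhibitor, and TET2 -0.021 between the controls and -0.042 for the difference. With 1 library left out, the siRNA comparison ranged over -0.19 to 0.10 for DNMT1, -0.080 to 0.13 for UHRF2, -0.065 to 0.11 for TET2, -0.12 to 0.16 for TET3, -0.23 to 0.11 for MBD2 and -0.087 to 0.34 for COL1A1. The inhibitor against the siRNA controls ranged over -0.046 to 0.084 for DNMT1, -0.14 to 0.13 for DNMT3A, -0.00012 to 0.079 for DNMT3B, -0.12 to 0.083 for UHRF2, -0.026 to 0.075 for TET1, -0.0065 to 0.17 for TET2 and -0.036 to 0.12 for TET3. The inhibitor comparison ranged over -0.041 to 0.00029 for DNMT3B and -0.10 to 0.026 for TET1, and that between the controls over -0.13 to 0.0016 for TET1 and -0.011 to 0.16 for TET2. The cause of these changes was not tested. Among the 9 genes the Cufflinks intervals of single runs were wide for DNMT3A (median half-width 80.1%), MBD2 (30.3%) and TET2 (29.3%).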

Other observations

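Of the 12840 genes tested, 5 were called between the inhibitor libraries and the siRNA controls, and were named after their values were seen. KIAA0101 is described above. S100A4, a calcium-binding protein, stood at 74.7 and 77.8 FPKM in the inhibitor libraries against 47.2 and 49.2 FPKM in the siRNA controls (log2 0.65, limma adjusted p = 0.00956). FGFBP1, a carrier of fibroblast growth factors, stood at 24.3 and 25.7 against 15.0 and 16.4 FPKM (log2 0.64), and ANKRD10-IT1 at 10.6 and 9.15 against 4.22 and 3.33 FPKM (log2 1.19). AC009133.15 was listed at 0.688 and 0.0024 FPKM in the inhibitor libraries against 5.88 and 8.82 FPKM in the siRNA controls (log2 -2.66). It was listed near 0 in the siRNA libraries and the inhibitor controls, and passed the filter on low values only through the siRNA controls, so its call is a description only.

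UHRF1 was higher in the second run than in the first in all 8 libraries, by a log2 of 0.0815 to 0.393 above the median gene of the library. Of 12711 genes compared, 5.29% did so in all 8 libraries. No label tells what differed between the runs.

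EHMT1, which encodes the G9a partner GLP, stood at 10.9 and 12.4 FPKM in the inhibitor libraries, 9.08 and 10.1 in the siRNA libraries, 12.2 and 15.8 in the siRNA controls and 25.5 and 24.0 in the inhibitor controls. It was called with the inhibitor (log2 -1.03 ± 0.12, limma adjusted p = 0.000352) and not with the siRNA (-0.49 ± 0.12, adjusted p = 0.0678). The siRNA value was called on the FPKM as deposited (limma adjusted p = 0.049). The difference between the 2 effects was not called (-0.53 ± 0.17, limma adjusted p = 0.0727). EHMT1 was also called between the siRNA controls and the inhibitor controls (-0.79 ± 0.12, limma adjusted p = 0.0011). Between the inhibitor libraries and the siRNA controls it was not (-0.24 ± 0.12, limma adjusted p = 0.446).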
